A study of Gallus gallus with 88 samples.

Results

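The genes described here carry out chromosome condensation, kinetochore assembly and spindle movement, and were measured in the hind muscle M. gastrocnemius of broiler embryos and chickens on Affymetrix gene arrays, 1 animal per array. Members were the probe sets with a single gene symbol that begins with CENP, NCAP, BUB, AURK, SKA or SMC, that begins with PLK or KIF followed by a digit, or that is MKI67, TOP2A, CDC20, CDK1, TTK, NDC80 or NUF2. This gave 85 probe sets of 75 genes among the 20706 probe sets that were not controls, of which 12300 had 1 symbol. MKI67 had 5 probe sets, NCAPH 4, and CENPF, CENPI and SMCHD1 each had a pair. A pair of the NCAPH probe sets held identical values, so that 84 of the 85 were distinct. AURKA, CENPA and CENPE had no probe set with their symbol alone.

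Eggs of a commercial broiler line were incubated at 37.8 °C except during a treatment interval. H10 embryos had 38.8 °C and L10 embryos 36.8 °C from day 7 to day 10 and were sampled on day 10, with C10 embryos kept at 37.8 °C. H13 embryos had 38.8 °C and L13 embryos 36.8 °C from day 10 to day 13 and were sampled on day 13, with C13 embryos kept at 37.8 °C. Each of these 6 groups had 8 embryos. Chickens of the same 4 treatments were raised after hatch and sampled on day 35 (D35), 8 per treatment, against a D35 control group of 2 C10 and 6 C13 chickens. The animal numbers form 2 series, whose meaning the labels do not give. All H groups lie in series 1 and all L groups in series 2, while C10 and C13 embryos have 4 in each. Comparisons of H or L with controls thus set 1 series against both. At D35 the 4 controls of series 2 are all C13, so D35 L10 has no C10 control in its series. The high temperature was given at a raised relative humidity, and the effects of temperature and humidity in the H groups cannot be told apart. The day 13 groups also differed from the day 10 groups in treatment interval, so that within H and within L the sampling day and the interval changed together.

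Mitosis separates the copied chromosomes into daughter cells. CDK1 with cyclin B drives entry, condensin compacts the chromosomes, kinetochores built on the centromere attach them to spindle microtubules, and the BUB checkpoint proteins hold CDC20 and the anaphase-promoting complex back until every chromosome is attached. Kinesins are motors that move along microtubules, some on the mitotic spindle and others in transport, cilia and signalling. In growing limb muscle, dividing myoblasts and connective tissue cells lie beside muscle fibres that have left the cell cycle.

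All values are log2 intensities as deposited, and a difference is that of group means on this scale. Among the embryos, 30 of the 85 members had a mean above 9.71, the 95th percentile of the background control probe sets, and 84 lay above the median of those controls of 5.61. At D35 only 4 members lay above the corresponding 9.49, and 60 above the median of 5.33. Over all 20706 probe sets, 4332 lay above this level in embryos and 2236 at D35. Both levels come from 23 background control probe sets. The median intensity of an array was 7.90 to 8.29 for embryos and 6.64 to 6.98 for D35 chickens. A probe set carries its own affinity, so levels are compared only within a probe set. In these whole-tissue samples, fewer dividing cells and less RNA per dividing cell cannot be told apart.

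Among the day 10 embryos 3 arrays stood low for many members. Animal 13 of H10 was the lowest of its group for 45 of the 85 members (52.9%, against 23.5% of all probe sets), animal 59 of L10 for 64 (75.3% against 46.5%) and animal 65 of C10 for 55 (64.7% against 37.5%). Several results that rest on them are given with and without them. The 3 arrays were picked from the members' own low values after seeing the data, so fits without them are descriptive. Of the skeletal muscle markers on the arrays, 10 of 11 lay above the background level in embryos. Skin and feather markers varied widely, with list means between 5.91 and 10.995 over the embryo arrays and 2 of 11 above the background level.

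Between day 10 and day 13 the members fell more often than probe sets in general. At an adjusted p below 0.05 in limma's moderated test, 30 members were lower and 6 higher in H13 than in H10, while 12.4% of all probe sets were lower and 14.3% higher. In L13 against L10, 38 were lower and 2 higher, with 15.2% and 9.76% of all probe sets. In C13 against C10, 33 were lower and 5 higher, with 16.4% and 11.8%. Counted as genes, 26, 33 and 29 of 75 were lower in these comparisons. Shares over all genes are not given, here or for the gene lists below. The shares over all probe sets beside such counts are thus of another unit.

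The median difference over the 85 members was -0.132 in H13 against H10, -0.244 in L13 against L10 and -0.184 in C13 against C10, where the medians over all probe sets were 0.0012, -0.0252 and -0.0235. A set of 27 members (31.8%) was lower in all 3 comparisons, as were 7.82% of all probe sets. In at least 1 comparison 41 members (48.2%) were lower, against 22.3% of all probe sets. The 3 comparisons share no arrays. For 13 members every H13 embryo lay below every H10 embryo (3.07% of all probe sets), for 19 every L13 below every L10 embryo (4.27%), and for 17 every C13 below every C10 embryo (4.73%). Complete separation upwards was seen for 1, 1 and 2 members, with 4.2%, 3.36% and 3.56% of all probe sets.

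Without the 3 arrays that stood low, the counts were 38 lower and 5 higher in H13 against H10 (12.9% and 13.7% of all probe sets in the same fit), 48 and 2 in L13 against L10 (19.3% and 9.34%), and 44 and 5 in C13 against C10 (18.4% and 11.1%). All 3 were day 10 arrays picked because the members were low on them. Such a choice raises the members' day 10 means, so part of the gain in lower calls is built in and is no added support. In H13 against H10 the split over all probe sets depended on scaling: 46.4% of all calls were lower as deposited, 57.3% after quantile normalization and 53.3% with arrays centred on their median. Of the members' calls, 83.3%, 87.2% and 86.7% were lower under these scalings.

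**Figure D1:**
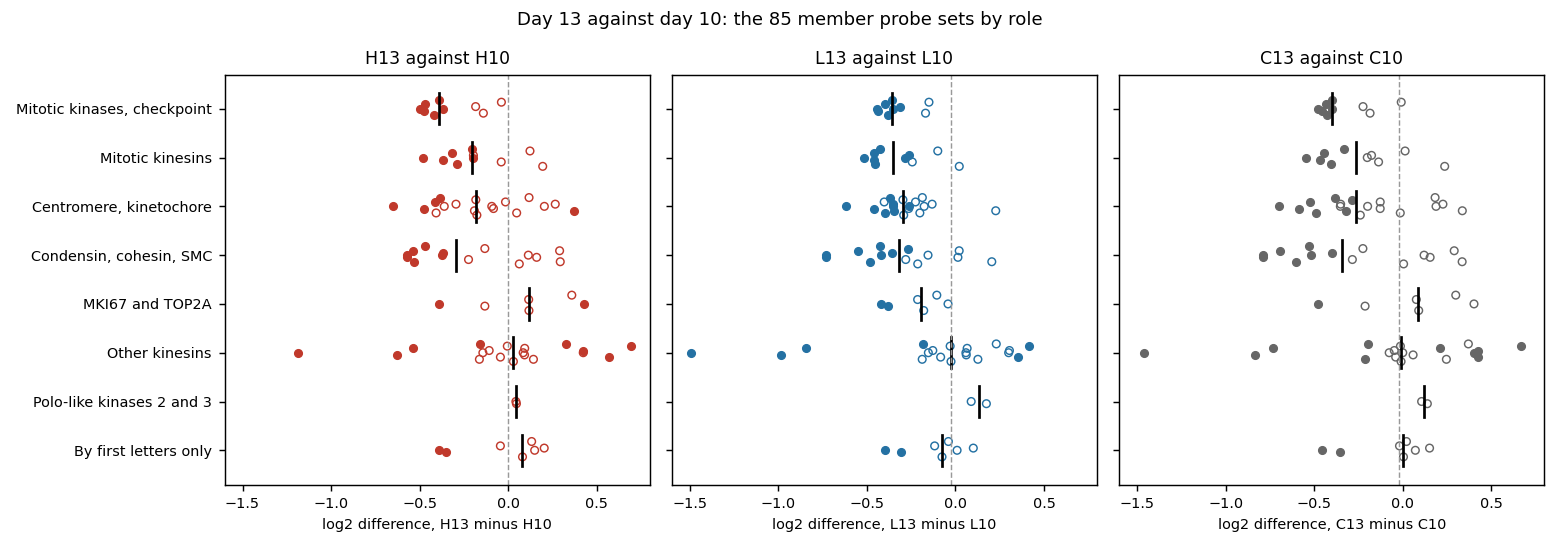
Log2 differences between day 13 and day 10 (x axis) for the 85 member probe sets by role (y axis), in H, L and C embryos; filled circles passed an adjusted p of 0.05, open circles did not, short vertical lines are role medians and dashed lines the median of all probe sets. Mitotic kinases, mitotic kinesins, kinetochore and condensin members lie mostly left of 0, and other kinesins spread to either side.

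Mitotic kinases and checkpoint genes were mostly lower on day 13. Of their 9 members 6 were lower in H13 than in H10, 7 in L13 than in L10 and 6 in C13 than in C10, with none higher and role medians of -0.393, -0.36 and -0.399. Over all probe sets 12.4%, 15.2% and 16.4% were lower and 14.3%, 9.76% and 11.8% higher in these comparisons. CDK1, the kinase that starts mitosis, ranged from 10.999 to 11.32 with a median of 11.17 in H13, against 11.55 to 11.87 with a median of 11.62 in H10. In L13 it ranged from 11.28 to 11.34 with a median of 11.30, against 11.41 to 11.84 with a median of 11.73 in L10. In C13 it ranged from 11.08 to 11.33 with a median of 11.16, against 11.41 to 11.77 with a median of 11.62 in C10. All 24 day 13 embryos thus lay below all 24 day 10 embryos. The CDK1 differences were -0.47 (adjusted p = 4.62e-09), -0.38 (adjusted p = 4.71e-07) and -0.43 (adjusted p = 2.01e-08) in H, L and C embryos, each with a standard error of 0.054.

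AURKB, the kinase of the chromosomal passenger complex, had a median of 9.69 (9.50 to 9.93) in H13, against 10.25 (9.90 to 10.48) in H10. Its medians were 9.82 (9.64 to 10.01) in L13 and 10.31 (10.00 to 10.43) in L10, and 9.69 (9.53 to 9.86) in C13 and 10.15 (9.72 to 10.45) in C10. Its ranges on both days overlapped at their edges within each incubation, and the differences of -0.50, -0.44 and -0.48 all passed the threshold. CDC20, the activator of the anaphase-promoting complex, fell by 0.47, 0.36 and 0.46 in H, L and C embryos. BUB1, a checkpoint kinase at the kinetochore, fell by 0.42, 0.40 and 0.43. Its relative BUB1B, part of the complex that restrains CDC20, fell by 0.37, 0.44 and 0.40. PLK1, the polo-like kinase of spindle assembly and cytokinesis, fell by 0.39, 0.35 and 0.40.

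The remaining members of this role had smaller differences. BUB3, the partner of both BUB kinases, passed the threshold in L13 against L10 (-0.31, adjusted p = 0.0130) and had differences of -0.18 in H and -0.22 in C embryos with adjusted p of 0.171 and 0.0823. PLK4, which starts centriole copying, had differences of -0.14, -0.17 and -0.18 in H, L and C embryos, none past the threshold. TTK, the kinase that recruits the checkpoint to kinetochores, had -0.04, -0.15 and -0.01, with adjusted p of 0.867, 0.430 and 0.974.

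Among the 10 mitotic kinesins 6, 7 and 5 were lower in H, L and C embryos and none was higher, with role medians of -0.202, -0.355 and -0.265. Over all probe sets 12.4%, 15.2% and 16.4% were lower. KIF4B, by its symbol a chromokinesin of the KIF4 family that acts on chromosome arms and the central spindle, ranged from 9.26 to 9.53 around 9.42 in H13, against 9.66 to 10.16 around 9.93 in H10. In L13 it ranged from 9.43 to 9.78 around 9.58, against 9.87 to 10.20 around 10.15 in L10, and in C13 from 9.41 to 9.58 around 9.48, against 9.88 to 10.29 around 10.00 in C10. Day 13 and day 10 embryos did not overlap within any of the 3 incubations, and the differences were -0.48, -0.52 and -0.54.

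KIF20A and KIF23, motors of the central spindle in cytokinesis, fell by 0.29 and 0.20 in H13, by 0.42 and 0.46 in L13 and by 0.45 and 0.40 in C13. KIF18B, which shortens astral microtubules, fell by 0.20, 0.46 and 0.47, and its call in H embryos was lost without animal 12 or 13 of H10 or animal 30 or 36 of H13 (adjusted p = 0.0519 to 0.111). KIF2C, a kinesin that takes microtubules apart at the centromere, fell by 0.31, 0.29 and 0.33. KIF20B, another cytokinesis motor, passed the threshold in H embryos (-0.37) and L embryos (-0.27, adjusted p = 0.0444, lost in 12 of 16 fits with 1 array left out) and had -0.20 in C embryos (adjusted p = 0.136). KIF15, a spindle motor, passed in L embryos (-0.46, adjusted p = 0.00569), with -0.20 in H and -0.18 in C embryos. KIF11, the motor that pushes spindle poles apart, had differences of -0.04, -0.10 and -0.14, with adjusted p of 0.868, 0.641 and 0.476. KIF14 and KIF18A passed in none of the 3 comparisons and had differences between -0.24 and 0.24.

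The kleisin subunits of condensin and the HEAT-repeat subunits NCAPD2 and NCAPD3 were lower on day 13 in all 3 comparisons. Of the 14 probe sets of condensin, cohesin and related SMC complexes 7, 8 and 7 were lower in H, L and C embryos and none was higher. Over all probe sets 12.4%, 15.2% and 16.4% were lower. The 14 probe sets are of 11 genes, and 4 of those lower in each comparison are of NCAPH, of which a pair is identical. NCAPH, the kleisin subunit that closes the condensin I ring, ranged from 9.80 to 10.26 around 10.01 in H13, against 10.28 to 10.75 around 10.60 in H10. It ranged from 10.02 to 10.21 around 10.09 in L13, against 10.41 to 10.80 around 10.68 in L10, and from 9.69 to 10.21 around 9.96 in C13, against 10.19 to 10.80 around 10.69 in C10. The C groups overlapped only through animal 65 of C10 at 10.19, and the H and L groups did not overlap. These values are of the brightest of its 4 probe sets, with differences of -0.53, -0.55 and -0.69, and all 4 were lower in each comparison.

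NCAPH2, the kleisin of condensin II, fell by 0.54, 0.42 and 0.60 in H, L and C embryos. NCAPD2, a HEAT-repeat subunit of condensin I, fell by 0.47, 0.42 and 0.52. Its condensin II counterpart NCAPD3 fell by 0.37, 0.36 and 0.40. NCAPG, the other HEAT-repeat subunit of condensin I, had -0.22, -0.16 and -0.28 with adjusted p of 0.191, 0.420 and 0.0823. In H embryos it passed after quantile normalization (-0.28, adjusted p = 0.0206) and with centred arrays (-0.26, adjusted p = 0.0405). In C embryos it passed in these settings (-0.30, adjusted p = 0.0112, and -0.29, adjusted p = 0.0202) and with arrayWeights (-0.26, adjusted p = 0.0436). With 1 array left out it passed in 1 of 16 fits in each. NCAPG2, its condensin II counterpart, passed in L embryos (-0.27, adjusted p = 0.0424, lost in 12 of 16 fits with 1 array left out).

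SMC2 and SMC4 are the ATPase subunits that NCAPH joins. SMC2 had differences of 0.11, -0.21 and 0.15 and SMC4 of 0.06, -0.28 and 0.12 in H, L and C embryos, none past the threshold. Without the 3 low arrays SMC2 had -0.07 and SMC4 -0.05 in H embryos. The SMC4 difference in L embryos was near the threshold: it passed without the 3 low arrays (-0.33, adjusted p = 0.00470), after quantile normalization (-0.28, adjusted p = 0.0336), with centred arrays (-0.27, adjusted p = 0.0401), with dim probe sets left out (-0.28, adjusted p = 0.0375), with arrayWeights (-0.30, adjusted p = 0.0109), with only the L10 and L13 groups in the fit (-0.28, adjusted p = 0.0193) and with the skin and feather covariate (-0.33, adjusted p = 0.0238). SMC3 of cohesin and SMC6 of the SMC5-SMC6 repair complex had 0.29 each in H, 0.02 and 0.01 in L, and 0.29 and 0.34 in C embryos, with adjusted p of 0.123 or above. Without the 3 low arrays the values of SMC3 were 0.16, -0.08 and 0.21. Those of SMC6 were 0.13, -0.11 and 0.28, again with none past the threshold. In C embryos SMC3 passed as higher with centred arrays (0.29, adjusted p = 0.0497) and with arrayWeights (0.28, adjusted p = 0.0372). SMC6 also passed as higher in C embryos with arrayWeights (0.35, adjusted p = 0.0295).

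Of the 18 centromere and outer kinetochore probe sets 4, 8 and 7 were lower in H, L and C embryos, with role medians of -0.18, -0.294 and -0.263. Over all probe sets 12.4%, 15.2% and 16.4% were lower. CENPJ, a centriole protein, was counted here by its symbol and passed in none of these comparisons. CENPL, a subunit of the constitutive centromere network, ranged from 8.52 to 8.83 around 8.69 in H13, against 8.93 to 9.37 around 9.11 in H10. It ranged from 8.44 to 8.83 around 8.69 in L13, against 9.05 to 9.41 around 9.30 in L10, and from 8.27 to 8.89 around 8.57 in C13, against 8.82 to 9.36 around 9.19 in C10. Only the C groups overlapped, and the differences were -0.41, -0.62 and -0.58. CENPO, of the same network, fell by 0.39, 0.37 and 0.53.

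CENPM, also of this network, fell by 0.47 in H13 and by 0.70 in C13, and had -0.29 in L13 (adjusted p = 0.0930). CENPI, which helps load new centromeric histone, was lower in all 3 comparisons on one probe set (-0.65, -0.35 and -0.49). On its other probe set it had -0.18 (adjusted p = 0.0554), -0.35 and -0.38 in H, L and C embryos, of which those in L and C embryos passed. NDC80 and NUF2 form the arm of the kinetochore that grips microtubules. NDC80 passed in L embryos (-0.40, adjusted p = 0.0114) and had -0.08 in H and -0.13 in C embryos. NUF2 passed in L (-0.26, adjusted p = 0.0206) and C embryos (-0.29, adjusted p = 0.0106) and had -0.09 in H embryos. In H embryos NUF2 passed after quantile normalization (-0.15, adjusted p = 0.0422), and in 0 of 16 fits with 1 array left out.

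CENPV, a microtubule-binding centromere protein, was the only member of this role called higher, and in H embryos alone. CENPC, CENPF and CENPJ also had differences above 0 in some comparisons, none of them past the threshold. The values of CENPV ranged as follows. Its values ranged from 10.14 to 10.58 around 10.32 in H13, against 9.77 to 10.14 around 9.99 in H10, a difference of 0.37 (adjusted p = 0.00264). The H groups met at 10.14. Its differences were 0.23 in L embryos (adjusted p = 0.0790) and 0.19 in C embryos (adjusted p = 0.147). In L embryos it passed with dim probe sets left out (0.23, adjusted p = 0.0450). It also passed there with the skin and feather covariate (0.30, adjusted p = 0.00207), and in 1 of 16 fits with 1 array left out.

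TOP2A, the topoisomerase that untangles sister chromosomes, ranged from 11.08 to 11.36 around 11.20 in H13, against 11.47 to 11.73 around 11.61 in H10. It ranged from 11.13 to 11.36 around 11.24 in L13, against 11.53 to 11.79 around 11.72 in L10, and from 11.05 to 11.30 around 11.20 in C13, against 11.54 to 11.75 around 11.70 in C10. As for CDK1, all 24 day 13 embryos lay below all 24 day 10 embryos. The TOP2A differences were -0.39 (adjusted p = 8.74e-09), -0.42 (adjusted p = 1.69e-09) and -0.48 (adjusted p = 6.24e-11), each with a standard error of 0.047.

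**Figure D2:**
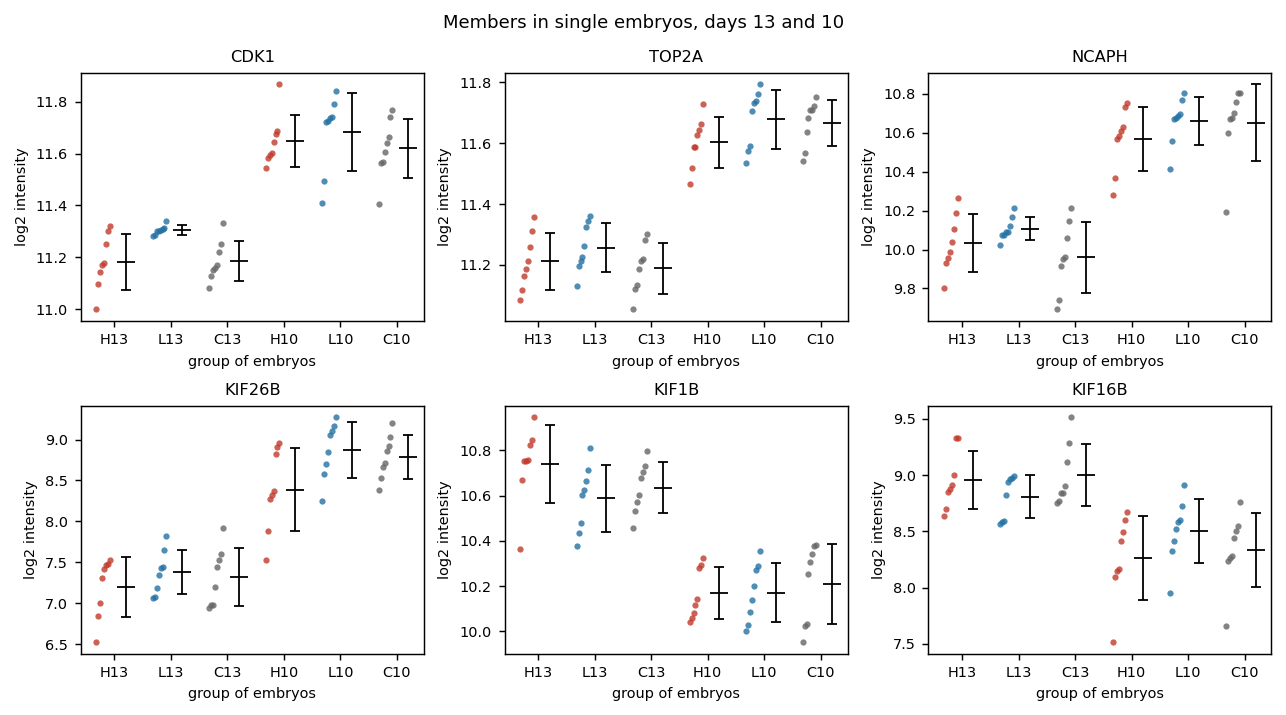
Log2 intensity (y axis) in single embryos of the H13, L13, C13, H10, L10 and C10 groups (x axis, 8 embryos each) for CDK1, TOP2A, NCAPH, KIF26B, KIF1B and KIF16B; points are embryos, and bars give the mean and SD. CDK1 and TOP2A separate the days in every incubation, with day 13 embryos at or below 11.36, and KIF1B and KIF16B lie higher on day 13.

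MKI67, whose product Ki-67 coats mitotic chromosomes and is a common label of dividing cells, did not give one answer over its 5 probe sets. Probe set 15528195, with the highest mean, ranged from 11.46 to 11.88 around 11.61 in H13, against 10.80 to 11.93 around 11.60 in H10. It ranged from 11.34 to 11.64 around 11.53 in L13, against 11.28 to 11.90 around 11.73 in L10, and from 11.23 to 11.91 around 11.69 in C13, against 11.05 to 11.82 around 11.66 in C10. All groups overlapped, and its differences of 0.12, -0.18 and 0.08 did not pass the threshold.

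Probe set 15528191 of MKI67 had differences of -0.13, -0.38 and -0.21 in H, L and C embryos and passed in L embryos (adjusted p = 0.00697). Probe set 15528204 had 0.43, -0.04 and 0.40 and passed, in the other direction, in H embryos (adjusted p = 0.0486), a call lost in 10 of 16 fits with 1 array left out. Probe sets 15528199 and 15528209 passed nowhere, with differences between -0.21 and 0.36.

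The 3 low arrays were the lowest of their groups for MKI67 probe set 15528195, at 10.80 in H10, 11.28 in L10 and 11.05 in C10. Without them 15528204 in H embryos had 0.28 and no longer passed (adjusted p = 0.0779), while 15528191 had -0.45 in L and -0.30 in C embryos and passed in both, and -0.21 in H embryos (adjusted p = 0.0554). In L embryos without them, 15528195 at -0.24 (adjusted p = 0.0137) and 15528199 at -0.26 (adjusted p = 0.00797) also passed. These fits drop day 10 arrays picked because the members were low on them, which raises the day 10 means. The calls gained without them are thus partly built in and no added support for a fall. Animal 39 of C13, lowest of its group for 15528195 at 11.23 (nearest 11.65), was kept.

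**Figure D3:**
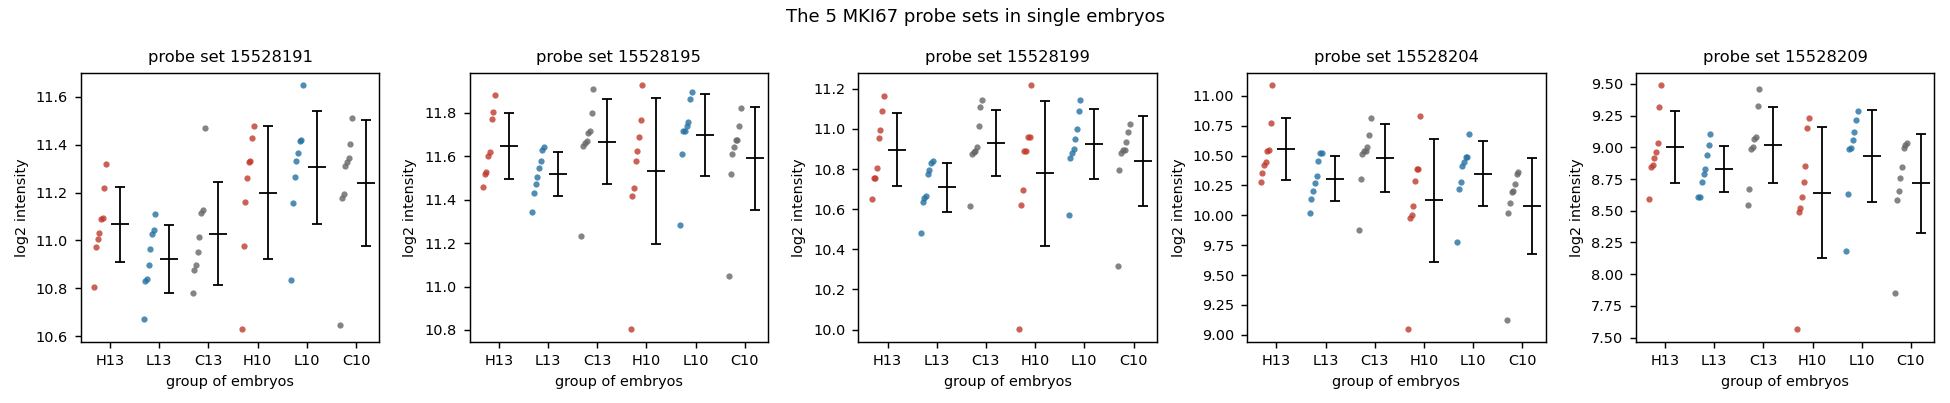
Log2 intensity (y axis) in single embryos of the 6 groups (x axis, 8 embryos each) for each of the 5 MKI67 probe sets; points are embryos, and bars give the mean and SD. The lowest point of H10, L10 and C10 in probe set 15528195, at 10.80, 11.28 and 11.05, stands apart from the rest of its group.

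CENPF, a large kinetochore protein of late cell cycle, also had no difference past the threshold on either probe set. The brighter one had 0.12, -0.26 and 0.34 in H, L and C embryos. Its H10 values ranged from 7.19 to 9.10 around 8.50, with animal 13 at 7.19, and without the 3 low arrays its differences were -0.06, -0.36 and 0.22.

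Of the 19 other kinesins 4, 4 and 5 were lower and 4, 2 and 5 higher in H, L and C embryos, with role medians of 0.0293, -0.0253 and -0.00946. Over all probe sets 12.4%, 15.2% and 16.4% were lower and 14.3%, 9.76% and 11.8% higher. The 2 higher in L embryos were thus near the share over all probe sets. KIF2A and KIF2B, by their symbols relatives of KIF2C, were counted here and not with the mitotic kinesins, and neither passed in any of these comparisons. The largest fall of any member was that of KIF26B, a kinesin-like protein without motor activity that acts in cell adhesion and movement. It ranged from 6.52 to 7.53 around 7.37 in H13, against 7.53 to 8.96 around 8.35 in H10. It ranged from 7.07 to 7.83 around 7.39 in L13, against 8.25 to 9.27 around 8.95 in L10, and from 6.95 to 7.92 around 7.32 in C13, against 8.38 to 9.20 around 8.79 in C10. The L and C groups did not overlap, and the highest H13 embryo met the lowest H10 embryo. The KIF26B differences were -1.19 (adjusted p = 8.84e-07), -1.49 (adjusted p = 7.45e-09) and -1.46 (adjusted p = 9.86e-09), each with a standard error of 0.18.

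KIF26A, its relative, which in mice is needed for the nervous system of the gut, ranged from 9.47 to 10.17 around 9.77 in H13, against 10.07 to 10.68 around 10.42 in H10. It ranged from 9.63 to 10.12 around 9.86 in L13, against 10.59 to 11.09 around 10.88 in L10, and from 9.43 to 10.30 around 9.88 in C13, against 10.34 to 11.002 around 10.78 in C10. The L and C groups did not overlap, and the differences were -0.63, -0.98 and -0.83. KIF1A, an axonal vesicle motor, had medians of 7.33 in H13 and 7.83 in H10, of 7.29 in L13 and 8.17 in L10, and of 7.33 in C13 and 8.02 in C10, and fell by 0.54, 0.84 and 0.73. KIF1A was not among the 30 members with a mean above the background level of 9.71, and neither were KIF26B, KIF16B, CENPL, CENPM, CENPO, NCAPH2, NCAPD3, KIF18B, KIF23 or KIF2C. The same held for other members with calls, such as NDC80, NUF2, CENPI on both probe sets, KIF20B and NCAPG2, and this list is not complete.

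KIF7, a ciliary regulator of Hedgehog signalling, was lower in H embryos (-0.16) and C embryos (-0.20), and had -0.13 in L embryos (adjusted p = 0.0805). KIF3B, a motor of ciliary transport, was lower in L (-0.19) and C embryos (-0.22), and had -0.11 in H embryos.

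Members that were higher on day 13 were mostly transport motors. KIF1B, which carries mitochondria and synaptic vesicle precursors, ranged from 10.37 to 10.95 around 10.76 in H13, against 10.04 to 10.32 around 10.13 in H10. It ranged from 10.37 to 10.81 around 10.61 in L13, against 10.00 to 10.36 around 10.17 in L10, and from 10.46 to 10.80 around 10.64 in C13, against 9.95 to 10.38 around 10.28 in C10. Within each incubation the groups did not overlap, and the differences were 0.57, 0.42 and 0.42. KIF13B, a motor of vesicle transport, rose by 0.33, 0.35 and 0.40, and its call in H embryos was lost without animal 13 of H10 (adjusted p = 0.0507) or animal 26 of H13 (adjusted p = 0.0518). These were the 2 members that were higher in all 3 comparisons (2.35%, against 6.67% of all probe sets), and 7 members (8.24%, against 18.2%) were higher in at least 1.

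KIF16B, an endosome motor, ranged from 8.64 to 9.33 around 8.90 in H13, against 7.51 to 8.67 around 8.29 in H10. It ranged from 8.57 to 8.99 around 8.88 in L13, against 7.96 to 8.91 around 8.56 in L10, and from 8.75 to 9.51 around 8.87 in C13, against 7.66 to 8.76 around 8.36 in C10. It rose by 0.69 in H and 0.67 in C embryos, and had 0.30 in L embryos (adjusted p = 0.130). In L embryos KIF16B passed after quantile normalization (0.32, adjusted p = 0.0277) and with centred arrays (0.31, adjusted p = 0.0311). It passed there in 0 of 16 fits with 1 array left out. KIF13A, an endosome and melanosome motor, rose by 0.42 in H and in C embryos and had 0.23 in L embryos (adjusted p = 0.102). In L embryos KIF13A passed after quantile normalization (0.24, adjusted p = 0.0133) and with centred arrays (0.24, adjusted p = 0.0156). It passed there in 0 of 16 fits with 1 array left out. KIF9, a motor of cilia and flagella, rose by 0.21 in C embryos.

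Calls in the remaining roles came from SMCO4 and SKA2P1 alone. PLK2 and PLK3, polo-like kinases of stress responses, had differences between 0.04 and 0.17 and passed nowhere. Of 7 probe sets grouped as taken in by their first letters, SMCO4 (-0.39, -0.31 and -0.36) and SKA2P1 (-0.35, -0.40 and -0.46) were lower in H, L and C embryos. SKA2P1 was counted here although its symbol holds that of SKA2, a gene of the SKA prefix in the rule. Among all probe sets 12.4%, 15.2% and 16.4% were lower in these comparisons. SKAP2, an adaptor of immune cell adhesion, AURKAIP1, a mitochondrial ribosome protein, SMCR8, a partner of C9orf72, and SMCHD1, a chromatin protein of X inactivation in mammals, passed nowhere.

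Mitosis genes outside the naming rule lay mostly below 0 on day 13 against day 10. Their list was chosen with earlier results of these data known. Of 71 such genes listed, 44 were measured, and 15 were lower and 3 higher in H13 than in H10, 24 and 0 in L13 than in L10, and 21 and 1 in C13 than in C10. Over all probe sets 12.4%, 15.2% and 16.4% were lower and 14.3%, 9.76% and 11.8% higher. Of the 44 genes 32, 40 and 36 lay below 0 in H, L and C embryos, as did 49.8%, 54.9% and 54.1% of all probe sets. The median differences of the 44 genes were -0.145, -0.22 and -0.237, beside 0.0012, -0.0252 and -0.0235 over all probe sets. Their highest differences were 0.515, 0.18 and 0.374 in H, L and C embryos. In C13 against C10 the largest falls among them were those of PBK (-0.78), a mitotic kinase, GTSE1 (-0.58), a spindle protein of G2 and mitosis, KNSTRN (-0.57), a kinetochore adaptor, MAD2L1 (-0.57), the checkpoint protein that binds CDC20, and PTTG2 (-0.53), of the securin family.

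Markers of other cell types were counted over the same days. Over all probe sets 12.4%, 15.2% and 16.4% were lower and 14.3%, 9.76% and 11.8% higher in H, L and C embryos. Skeletal muscle markers were higher for 5 of 11 genes in H, 7 in L and 6 in C embryos with none lower, and their list means lay between 10.93 and 11.54 in C13 and between 10.21 and 10.88 in C10. Cartilage markers were lower for 3 of 14 genes in H, 9 in L and 7 in C embryos and higher for 2, 1 and 1. Of 10 neuron and Schwann cell markers 2, 6 and 5 were lower and 1, 0 and 2 higher, and of 9 red blood cell markers 2, 3 and 2 were lower and 1, 0 and 0 higher. Of the leukocyte markers 0, 2 and 1 of 10 were lower and 2, 1 and 1 higher. Skin and feather markers passed for 1 gene of 11, higher in L13. The counts of leukocyte and of skin and feather markers were near or below the shares over all probe sets. The part of these lists in the members' falls was not tested, apart from a fit with the skin and feather mean as a covariate. In that fit 37, 43 and 40 members were called in either direction in H, L and C embryos. The share of all probe sets called there is not given, so these counts do not show whether the members' excess held.

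Incubation temperature within a sampling day gave no called member. In H10 against C10 the count was 0 of 85 at an adjusted p below 0.05, where 0.13% of all probe sets passed, and at an unadjusted p up to 0.05 it was 9 lower and 0 higher, against 6.41% and 2.89% of all probe sets. In L10 against C10 it was 0, with 0% of all probe sets, and 0 lower and 1 higher unadjusted, against 1.54% and 2.77%. In H13 against C13 it was 0, with 0.00966% of all probe sets, and 2 lower and 3 higher unadjusted, against 4.16% and 6.25%. In L13 against C13 it was 0, with 0.0193% of all probe sets, and 2 lower and 5 higher unadjusted, against 2.35% and 5.05%. Without the 3 low arrays the unadjusted counts were 0 lower and 8 higher in L10 against C10, with 2.23% and 5.68% of all probe sets, and 4 and 9 in L13 against C13, with 2.87% and 6.14%. H10 and L10 share the C10 embryos, and H13 and L13 the C13 embryos.

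Small shifts of sign were seen on day 10. In H10 against C10, 60 of the 85 differences lay below 0 with a median of -0.0582, where 59.3% of all probe sets lay below 0 with a median of -0.0284. In L10 against C10, 73 lay above 0 with a median of 0.0985, where 59.7% of all probe sets lay above 0 with a median of 0.0263. Of the 44 mitosis genes outside the rule, 39 lay above 0 in L10 against C10. In H10 against C10, 27 of the 44 lay below 0, near the share over all probe sets. These day 10 counts and medians are not given without the 3 low arrays, which lie in the groups compared. On day 13 the members' medians were -0.00375 in H13 and 0.055 in L13 against C13, beside 0.0108 and 0.0139 over all probe sets. Marker lists of other tissues lay to one side in the same comparisons. All 11 skin and feather markers lay below 0 in H10 against C10 (median -0.679) and in H13 against C13 (median -1.06, with 5 of 11 at an unadjusted p up to 0.05), and 10 of 11 in L10 against C10 (median -0.353). The skin and feather list means ranged from 5.91 to 9.78 in H10, against 8.44 to 10.13 in C10, and from 6.17 to 10.66 in H13, against 7.09 to 10.995 in C13. All 11 skeletal muscle markers lay above 0 in H10 against C10 (median 0.1) and in H13 against C13 (median 0.155). None of these markers passed the adjusted threshold, and their part in the members' values was not tested beyond the skin and feather covariate, with which 0 members were called.

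Over the 85 members the differences ran from -0.402 to 0.181 in H10 and from -0.171 to 0.319 in L10 against C10, and from -0.329 to 0.304 in H13 and from -0.399 to 0.237 in L13 against C13. CDK1 and TOP2A, which separated the days, had small differences and narrow intervals. In H10 against C10 the CDK1 difference was 0.03 (95% interval -0.0801 to 0.139) and that of TOP2A -0.06 (-0.157 to 0.032). In L10 against C10 they were 0.06 (-0.0465 to 0.173) and 0.01 (-0.0815 to 0.107). In H13 against C13 they were -0.00 (-0.113 to 0.106) and 0.02 (-0.0714 to 0.117), and in L13 against C13 0.12 (0.00885 to 0.228) and 0.07 (-0.0259 to 0.163). These intervals of CDK1 and TOP2A lay within 0.23 of 0, while their falls between the days were 0.38 or more. Other members had wider ones, such as CENPF at -0.40 in L13 against C13 (-0.777 to -0.0208, adjusted p = 0.635), with all 8 L13 embryos below the C13 mean.

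KIF3B was the only member whose H10 embryos, from 9.55 to 9.88 around 9.83, all lay below the C10 embryos, from 9.88 to 10.14 around 9.98, the ranges meeting within rounding. Such separation in either direction was seen for 0.0869% of all probe sets, and the KIF3B difference was -0.18 (adjusted p = 0.209). KIF18B had -0.22 (adjusted p = 0.245) and KIF26A -0.33 (adjusted p = 0.25) in H10 against C10. The smallest p of L10 against C10 were those of CENPC (0.21), which anchors the kinetochore to centromeric chromatin, CENPJ (0.32), a centriole protein, and KIF5B (0.19), the conventional kinesin heavy chain, each with an adjusted p of 0.951. In H13 against C13 they were those of CENPV (0.30, adjusted p = 0.276), CENPP (0.24, adjusted p = 0.387) and KIF20A (0.15, adjusted p = 0.456). CENPV had 10.14 to 10.58 in H13, against 9.69 to 10.54 in C13. In L13 against C13 they were those of CENPO (0.15, adjusted p = 0.560), NCAPH2 (0.17, adjusted p = 0.595) and CENPI (0.16, adjusted p = 0.615).

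Whether the fall between the days differed with temperature was tested as an interaction, and no member passed. For H against C embryos 0 of 85 passed, with 0.00966% of all probe sets, and 0 were lower and 2 higher at an unadjusted p up to 0.05, against 1.67% and 5.88% of all probe sets. These 2 were KIF18B (0.26, adjusted p = 0.505) and KIF23 (0.20, adjusted p = 0.586), whose falls between the days were 0.20 each in H embryos and 0.47 and 0.40 in C embryos. For L against C embryos 0 passed, with 0% of all probe sets, and 2 were lower and 1 higher unadjusted, against 1.93% and 1.55%. These were SMC4 (-0.40), CENPF (-0.60) and CENPM (0.41), each with an adjusted p of 1. Without the 3 low arrays the unadjusted counts were 0 lower and 6 higher for H (1.63% and 7.93% of all probe sets) and 12 and 0 for L (3.29% and 1.52%), again with none past the adjusted threshold.

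The array annotation and the current chicken gene table placed 6 members on chromosome Z, the sex chromosome of which males carry a pair and females a single copy: CENPH, KIF24, KIF27, KIF2A, PLK2 and SMC2. Sex was balanced by design and is not in the labels. The mean of the 18 probe sets of W-linked genes, found only in females, split the 48 embryo arrays into 25 between 4.03 and 5.22 and 23 between 8.69 and 9.32, with 3 or 4 high arrays in each group. With this mean as a covariate scaled from its lowest to its highest array, 4 of the 6 Z-linked members and 0 of the 79 others passed, all lower where the W-linked mean was high, where 3.07% of all probe sets passed. Of the 545 Z-linked probe sets on the arrays, 59.3% were lower with it.

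SMC2 ranged from 8.33 to 9.77 around 9.30 in the 23 embryos of high W-linked mean, against 9.18 to 10.35 around 10.01 in the 25 others, a covariate difference of -0.75 (adjusted p = 2.5e-07). CENPH, a subunit of the centromere network, had medians of 8.41 and 9.05 in these embryos and a difference of -0.66. KIF24, a ciliary kinesin, had 9.99 and 10.49 and a difference of -0.65. PLK2 had 10.18 and 10.67 and a difference of -0.56. KIF27 (-0.23, adjusted p = 0.272) and KIF2A (-0.15, adjusted p = 0.711) did not pass. The ranges of both kinds of embryo overlapped for all 6.

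**Figure D4:**
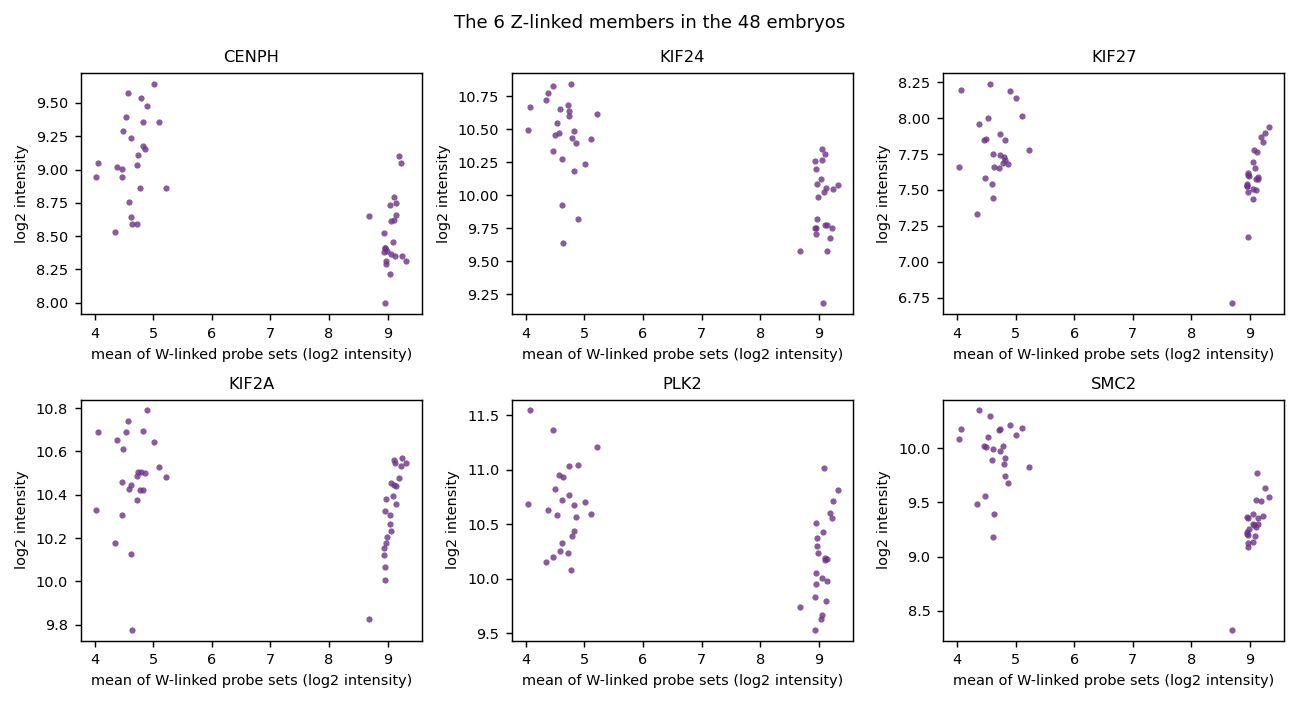
Log2 intensity (y axes) of the 6 Z-linked members in the 48 embryos against the mean of the W-linked probe sets (x axes, log2 intensity); each point is an embryo. The embryos form a low and a high cluster on the x axis, and SMC2, CENPH, KIF24 and PLK2 lie lower in the high cluster.

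At D35 the members were dim, and no member passed the threshold between a treated group and the controls. The 4 treated groups share the same 8 controls. In D35 H10 against D35 controls 0 of 85 passed, with 0% of all probe sets, and 6 were lower and 0 higher at an unadjusted p up to 0.05, against 1.97% and 0.86% of all probe sets. In D35 L10, 0 passed, with 0% of all probe sets, and 11 were lower and 0 higher unadjusted, against 4.11% and 2.17%. In D35 H13, 0 passed, with 0.00483% of all probe sets, and 0 were lower and 0 higher unadjusted, against 2.35% and 1.56%. In D35 L13, 0 passed, with 0.0145% of all probe sets, and 11 were lower and 1 higher unadjusted, against 4.71% and 7.97%.

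Most differences at D35 lay below 0: 66, 75, 53 and 66 of 85 in D35 H10, L10, H13 and L13, where 57.8%, 59.4%, 54.2% and 43.6% of all probe sets did. The members' medians were -0.0858, -0.174, -0.0338 and -0.162, beside -0.022, -0.0359, -0.0134 and 0.0314 over all probe sets. Control animal 68 was the highest of its group for 33 of the 85 members (38.8%, against 15.8% of all probe sets), and its leukocyte marker mean was 8.51, against 7.05 to 7.49 in the other controls. Without it, 61, 74, 36 and 62 members lay below 0, with 54%, 56.8%, 50.5% and 41.8% of all probe sets, and the members' medians were -0.0828, -0.137, 0.022 and -0.117. In D35 H13 most differences thus lay above 0 without this control. The unadjusted counts were then 1 lower and 0 higher in D35 H10 (1.42% and 0.908% of all probe sets), 6 and 0 in L10 (3.26% and 2.63%), 0 and 1 in H13 (2.02% and 1.6%), and 6 and 1 in L13 (3.97% and 9.05%). The part of leukocytes in these values was not tested.

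MKI67 probe set 15528195 at D35 ranged from 6.47 to 7.96 around 6.71 in H10, from 6.41 to 7.40 around 7.24 in L10, from 6.47 to 8.21 around 7.29 in H13 and from 6.18 to 7.89 around 7.02 in L13, against 6.89 to 8.42 around 7.47 in the controls. The control at 8.42 was animal 68, and all groups overlapped. Its differences were -0.46, -0.39, -0.05 and -0.45. TOP2A ranged from 5.74 to 7.06 around 6.05 in H10, from 5.56 to 6.50 around 6.16 in L10, from 6.01 to 7.73 around 6.51 in H13 and from 5.60 to 6.79 around 6.06 in L13, against 5.93 to 7.48 around 6.54 in the controls. Its differences were -0.38, -0.51, 0.07 and -0.52. CDK1 ranged from 6.07 to 7.45 around 6.40 in H10, from 5.60 to 6.89 around 6.37 in L10, from 5.90 to 7.62 around 6.72 in H13 and from 5.93 to 7.31 around 6.37 in L13, against 6.34 to 7.65 around 6.62 in the controls. Its differences were -0.30, -0.47, -0.03 and -0.39.

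Over the 6 probe sets of MKI67 and TOP2A the median difference was -0.422 in D35 H10, -0.373 in L10, -0.0677 in H13 and -0.503 in L13. Without control animal 68 it was -0.287, -0.241, 0.074 and -0.374. None of these probe sets passed the adjusted threshold in either case.

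**Figure D5:**
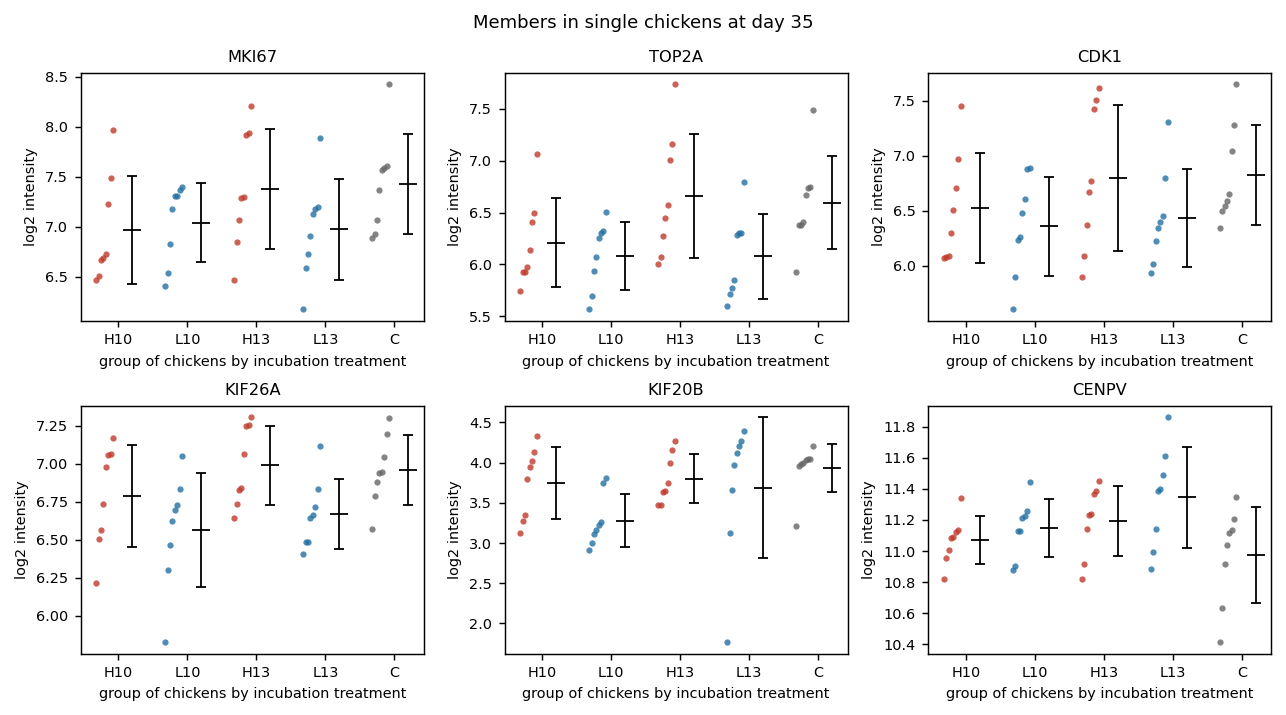
Log2 intensity (y axis) in single chickens at D35 incubated as H10, L10, H13, L13 or controls (x axis, 8 chickens each) for MKI67, TOP2A, CDK1, KIF26A, KIF20B and CENPV; points are chickens, and bars give the mean and SD. All groups overlap with the controls in all 6 genes, and a single control lies at 8.42 for MKI67.

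The members with the smallest p at D35 differed between the comparisons. With each gene taken by its brightest probe set, in D35 H10 against controls they were KIF23 (-0.39), NCAPD2 (-0.15) and PLK4 (-0.24), each with an adjusted p of 1. Of the other probe sets, MKI67 15528204 (-0.54, unadjusted p = 0.0306) and 15528209 (-0.53, unadjusted p = 0.0417) were also under an unadjusted 0.05 in limma's test there. KIF23 ranged from 4.71 to 6.08 around 5.49 in H10, against 5.49 to 6.04 around 5.89 in the controls. In D35 L10 they were KIF26A (-0.39), KIF20B (-0.66) and CENPL (-0.49), each with an adjusted p of 0.762. A dimmer probe set of NCAPH, 15554751, had -0.36 with the same adjusted p of 0.762. KIF26A ranged from 5.83 to 7.05 around 6.66 in L10, against 6.57 to 7.30 around 6.94 in the controls. KIF20B ranged from 2.91 to 3.81 around 3.19 in L10, against 3.22 to 4.21 around 4.02 in the controls, all below the median of the background controls of 5.33. CENPL had a mean of 4.37 in the D35 control chickens, also below this median.

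In D35 H13 the smallest p were those of CENPV (0.22), KIF2B (-0.20) and SMCO4 (-0.29), each with an adjusted p of 1. In D35 L13 they were those of CENPV (0.37, adjusted p = 0.203), NCAPH2 (-0.31, adjusted p = 0.293) and CENPP (-0.29, adjusted p = 0.297). Dimmer probe sets of NCAPH (15554751, -0.36, adjusted p = 0.254) and CENPF (15494830, -0.53, adjusted p = 0.286) had smaller p than NCAPH2. This CENPF probe set had a mean of 5.04 in the D35 control chickens, below the background median of 5.33. CENPV, one of the 4 members above the background level at D35, ranged from 10.88 to 11.86 around 11.39 in L13, against 10.41 to 11.35 around 11.08 in the controls, and the groups overlapped.

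The same W-linked mean split the 40 D35 arrays into 21 between 3.57 and 4.36 and 19 between 7.43 and 8.37. Of the Z-linked members 1 passed, KIF27 at -0.26 (adjusted p = 0.0295), where 2.95% of all probe sets passed and 49.5% of the 545 Z-linked probe sets were lower. SMC2 ranged from 3.89 to 5.76 around 5.07 in the 19 chickens of high W-linked mean, against 4.51 to 6.52 around 5.58 in the others, with a difference of -0.53 (adjusted p = 0.108).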

How the data were processed

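Total RNA of single M. gastrocnemius samples from 48 embryos and 40 chickens was hybridised to 88 Affymetrix chicken gene arrays. The authors deposited normalized log2 values per probe set, with GCOS 1.1.1 named in the submitters' processing notes. The summarization and normalization method and the genome build are not given in the sources used here. A second deposited table held the same log2 values for all 20706 probe sets compared, and 98 of the 20804 probe sets are controls and were left out. Gene symbols came from the platform annotation, with 1 symbol for 12300 probe sets, several for 256 and none for 8150. Of the 85 members 78 were matched by gene ID to the RefSeq table of assembly GRCg7b, which gave Z and W linkage.

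Within each stage, limma 3.58.1 in R 4.3.3 fitted a mean per group, moderated the spread with eBayes, tested each contrast two-sided and adjusted p-values by Benjamini-Hochberg within the comparison over all 20706 probe sets, with a threshold of 0.05 and no filter on level. The D35 controls of both intervals formed 1 group. Arrays are single animals, and their number limits the precision. Summaries and figures used Python 3.11.15, numpy 2.4.6, pandas 2.3.3 and matplotlib 3.10.9, and the fits were tested on simulated data first. Members and lists were chosen with earlier results of these data known. Named were 20 core mitosis genes where measured, and per comparison the 3 members of each role with the largest differences where over 10 members passed, or the 3 with the smallest p where none did, and any with an unadjusted p under 0.05 opposite to most of its role. A gene with several probe sets was represented by that of the highest mean. Alternatives were quantile normalization, centred arrays, a filter on dim probe sets, eBayes with trend and robust, arrayWeights, other sample sets, covariates (series of animal numbers, W-linked mean, skin marker mean), C13 chickens alone as D35 controls, 1 probe set per gene, and leaving out each array.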

Additional observations from a re-analysis of the deposited data

Results flagged for a closer look

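Single arrays stood apart from the other 7 of their group by Dixon's criterion in 18 of 126 sets of embryo values and 3 of 55 sets at D35. Chance gives about 1 in 20 for a single set. The sets are not independent, as the same arrays and several MKI67 probe sets recur, and the genes were chosen with earlier results known. How far the counts exceed chance was thus not tested. Most of the embryo cases were the 3 low arrays of day 10. Animal 65 of C10 was lowest for NCAPH (10.19, nearest 10.6) and for MKI67 probe sets 15528191 (10.65, nearest 11.18), 15528195 (11.05, nearest 11.52), 15528199 (10.32, nearest 10.79), 15528204 (9.12, nearest 10.02) and 15528209 (7.85, nearest 8.58). Animal 13 of H10 was lowest for MKI67 15528195 (10.8, nearest 11.42) and 15528209 (7.56, nearest 8.49), for CENPF (7.19, nearest 8.26) and for KIF3B (9.55, nearest 9.79). Animal 59 of L10 was lowest for AURKB (10.0, nearest 10.23) and for MKI67 15528195 (11.28, nearest 11.61).

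Further embryos stood apart in fewer members. Animal 39 of C13 was lowest for MKI67 15528195 (11.23, nearest 11.65) and SMC4 (9.85, nearest 10.23). Animal 36 of H13 was lowest for KIF1B (10.37, nearest 10.67) and KIF18B (8.12, nearest 8.35). Animal 6 of H10 was highest for CDK1 (11.87, nearest 11.69), and animal 41 of C13 for KIF3B (9.98, nearest 9.82). At D35, control animal 68 was highest for MKI67 15528191 (8.03, nearest 7.33) and 15528195 (8.42, nearest 7.6), and control animal 77 was lowest for KIF20B (3.22, nearest 3.95).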

How the results depend on the processing

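With probe sets below the background level left out, 30 embryo members were tested, of which 20 were called in H13 against H10, 22 in L13 against L10 and 21 in C13 against C10. Under the other alternatives the counts ran from 31 to 47, 35 to 52 and 34 to 50. These took all 85 members, or 75 where 1 probe set per gene was kept. With single arrays left out the counts ran from 34 to 38, 37 to 45 and 36 to 46. These counts take both directions together, and the share of all probe sets called moved with the setting as well. After quantile normalization 18.2%, 16.4% and 20% of all probe sets were lower in H, L and C embryos, against 12.4%, 15.2% and 16.4% as deposited. The counts alone thus do not show how far the members' excess held. No member was called in a treatment, interaction or D35 comparison under any alternative or with any array left out (0 in each), except CENPV in H13 against C13 with arrayWeights (1 member, 0.40, adjusted p = 0.0164). With the W-linked mean, quantile normalization called 2 members at D35, against 1 as deposited.

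Of 1388 values of named genes under these alternatives, 1344 kept direction and side of the threshold, 34 passed only in the alternative, 2 no longer passed (KIF9 in C13 against C10 with centred arrays, KIF7 in H13 against H10 with only its own groups) and 8 changed sign, none of them a call. MKI67 15528195 in C13 against C10 had -0.00522 after quantile normalization and -0.00116 without the 3 low arrays, a setting chosen after seeing the data. In H13 against H10, CENPF had -0.0311 with arrayWeights and -0.0574 without those arrays, SMC2 -0.00821 and -0.0696, and SMC4 -0.0484 and -0.0530. With 1 array left out, calls were lost in some of 16 fits for 9 members: CENPS (11 fits) and KIF9 (1, without C13 animal 89, adjusted p = 0.0638) in C13 against C10, KIF20B (12), NCAPG2 (12) and CENPQ (2, without L10 animal 54 or L13 animal 77) in L13 against L10, and MKI67 15528204 (10), KIF18B (4), KIF7 (3, without H10 animal 9 or 12 or H13 animal 32) and KIF13B (2) in H13 against H10. Causes were not tested.

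No paired analysis was possible because the replicate numbers are those of single animals and no compared groups share them. The series of animal numbers could not be tried in H13 against H10 or L13 against L10, which each lie in 1 series. At D35 only 4 members exceeded the background level, which limits what small differences there can show.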
